A study of Oryctolagus cuniculus with 6 samples.

Results

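The 10 genes described here are STAT3, the signalling receptors IL6ST, LIFR and OSMR, the Janus kinases JAK1, JAK2 and TYK2, and the feedback genes SOCS3, SOCS2 and PIAS3. They were chosen by symbol, and all 10 were found among the 28788 genes in the count and FPKM tables of rabbit retina. RNA was sequenced from 3 normal retinas and from 3 retinas of adult rabbits with proliferative vitreoretinopathy (PVR), a scarring disease of the eye in which contractile membranes form on the retina. In the PVR group, the sclera was punctured, vitreous was withdrawn and platelet-rich plasma was injected into the vitreous cavity. The model therefore combines a wound, a loss of vitreous and a dose of blood-derived material. The labels and methods do not give the strain, the interval between injection and collection, or any procedure on the normal eyes. Nor do they say whether samples of a group came from separate animals, so the p-values measure only the spread between these samples, which may be technical.

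Cytokines of the interleukin-6 family bind a specific receptor that pairs with IL6ST, the shared subunit also called gp130. The receptors carry Janus kinases, which phosphorylate STAT3. STAT3 then enters the nucleus and switches on its targets, among them its own gene and SOCS3, whose protein binds the receptor and shuts the signal down. PIAS proteins restrain STAT proteins in the nucleus. In the retina, members of this family such as CNTF and LIF are known to act on Müller glia and photoreceptors after injury. The phosphorylation of STAT3 was not measured here, since the data are RNA only.

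The samples held between 31904593 and 43035080 counted reads. Differences were tested with edgeR on counts. Its default filter removed genes with few reads and left 18697, among them all 10 members, with Benjamini-Hochberg adjustment over those genes. A gene was called changed at an adjusted p under 0.05. Retinal identity was checked on 5 cone photoreceptor genes, ARR3 and GNAT2 among them, which summed to 1279 to 1816 CPM in normal and 1097 to 1444 CPM in PVR. A list of 7 rod genes summed to 39950 to 47320 CPM in normal and 28540 to 39150 CPM in PVR. Of these, 5 were below normal in every PVR sample in CPM, as were 14.6% of all genes tested. None of the rod genes was called by edgeR. Normal replicate 2 stood apart. A list of 11 lens genes summed to 36750 CPM there, whereas the other normal retinas had sums of 16.1 and 19.1 CPM and the PVR retinas sums from 323 to 356 CPM. Calls that were lost without that sample are named beside the results.

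Of the 10 members, 2 were higher in PVR and none was lower. The 2 were STAT3 and SOCS3, and both were also past the study's fold threshold of 1 on the log2 scale. At an unadjusted p under 0.05, edgeR gave 3 higher and 0 lower, and DESeq2, at an adjusted p under 0.05, called 3 higher (IL6ST being the addition) and 0 lower. Over all genes tested, edgeR called 1.09% higher and 0.615% lower, with 0.690% higher past the fold threshold, and DESeq2 called 5.43% higher and 3.33% lower. Many genes pass the unadjusted threshold. By edgeR p-value the cone gene PDE6H, at an unadjusted p of 0.0494, stood at position 3931 of the 18697 genes. The unadjusted counts here and below were not set against a share of all genes in each direction. The median log2 fold change of the members was 0.26, beside -0.01 for all genes tested. The members and the lists below were chosen with earlier results of these data known, and the study had reported STAT3 as higher in this model. The counts and medians are therefore not independent evidence of a direction.

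**Figure D1:**
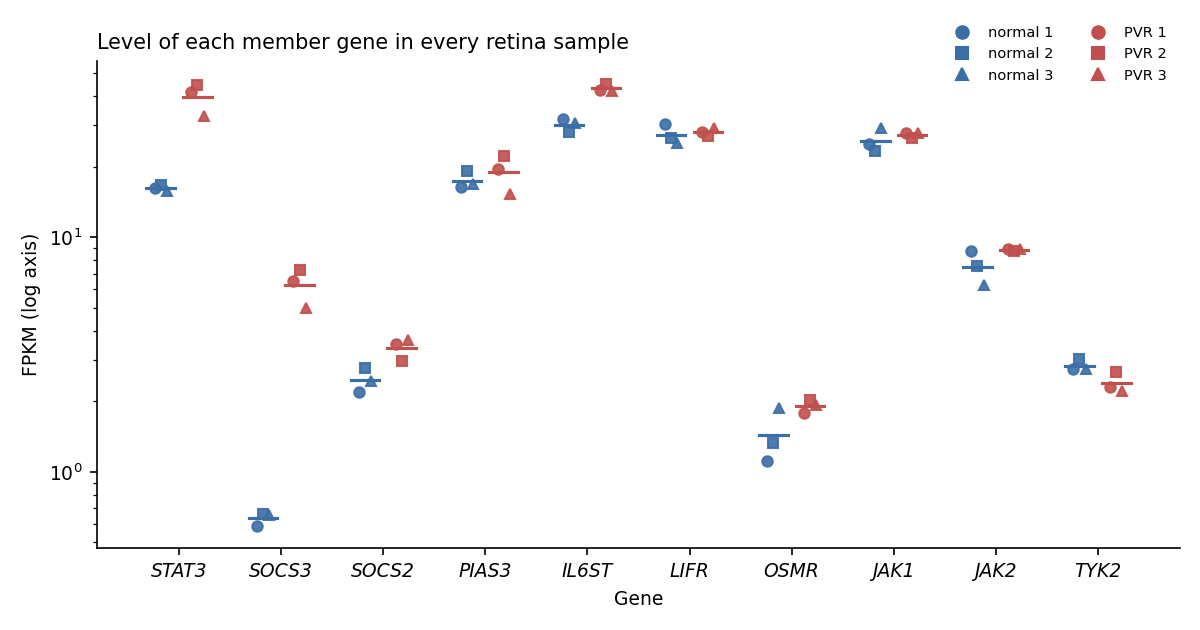
FPKM of each member gene in the 3 normal (blue) and 3 PVR (red) retina samples on a log axis, with a symbol for each replicate and a line at the group mean. STAT3 ran from 15.8 to 16.8 in normal and from 32.8 to 44.5 in PVR, and SOCS3 showed the widest gap, whereas the points of LIFR and JAK1 overlapped.

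STAT3, the transcription factor at the centre of the pathway, had FPKM values of 16.2, 16.8 and 15.8 in normal replicates 1 to 3. It had 41.6, 44.5 and 32.8 in PVR replicates 1 to 3. The groups did not overlap, the normal samples lay close together, and PVR replicate 3 was the lowest of its group. The fitted rise was 2.32-fold, a log2 fold change of 1.21 with a 95% interval from 0.94 to 1.48 (edgeR, adjusted p = 0.00733). Without normal replicate 2 the log2 fold change was 1.26 (edgeR, adjusted p = 0.0241), in a test that called 0.292% of all genes higher. The call was lost without PVR replicate 1 (edgeR, adjusted p = 0.0658), although the log2 fold change was still 1.18. Only 22 of all genes were called in that test. In a sample of whole retina, a change in the number of cells that express a gene cannot be told apart from a change in the RNA per cell.

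SOCS3, the feedback inhibitor that STAT3 induces, had the largest rise of the 10 genes. Normal retinas gave 50, 59 and 57 counts, and PVR retinas 453, 510 and 466. In FPKM this was 0.589, 0.664 and 0.653 against 6.52, 7.24 and 4.97. The lowest PVR sample was far above the highest normal sample, and again it was replicate 3. The fitted rise was 9.32-fold, a log2 fold change of 3.22 with a 95% interval from 2.73 to 3.71 (edgeR, adjusted p = 0.0013). By p-value SOCS3 stood at position 9 of the 18697 genes, ahead of STAT3 at position 23. The call held in all 15 alternative settings. Its log2 fold change was between 2.13 and 3.35, and the lowest value came from the scale with 1 FPKM added, which understates changes of weakly expressed genes.

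**Figure D2:**
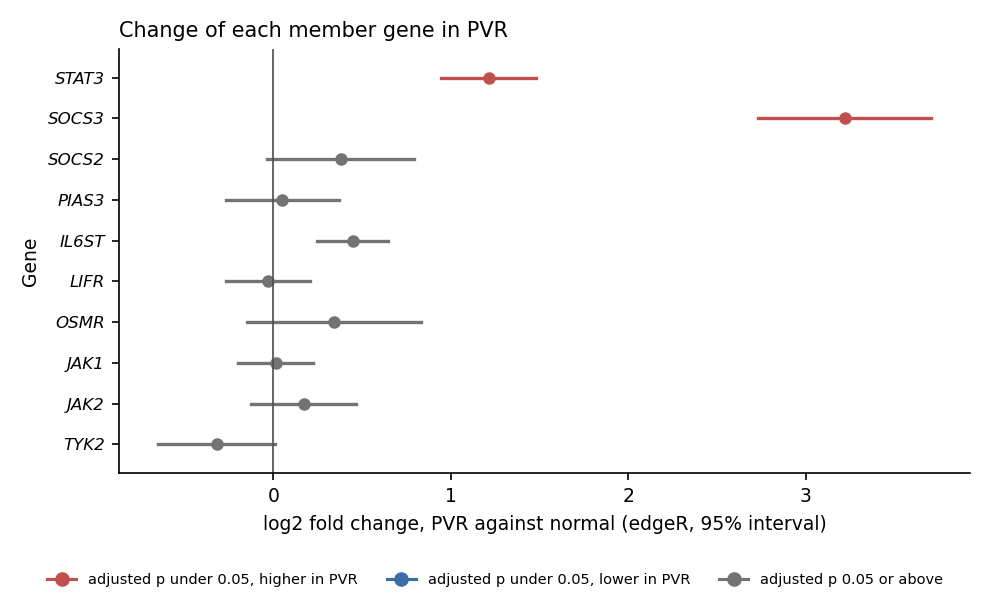
Log2 fold change of each member in PVR against normal retina from edgeR, with its 95% interval over 3 samples a group. STAT3 and SOCS3 (red) were called, at 1.21 and 3.22, and the intervals of the other members (grey) included 0, with the exception of IL6ST, whose interval ran from 0.25 to 0.64.

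The rise of SOCS3 was also larger than that of STAT3. The FPKM of SOCS3 divided by that of STAT3 in the same sample was 0.0364, 0.0396 and 0.0413 in the normal retinas. It was 0.157, 0.163 and 0.152 in the PVR retinas. Thus SOCS3 RNA per STAT3 RNA was 4.02 times higher in PVR, and the spread within each group was far smaller than the gap between them. The two-sided exact permutation test gave p = 0.1, the smallest that 3 samples against 3 allow, and 0.25 after adjustment over the 5 ratios examined. Since depth cancels within a sample, the difference does not rest on the scaling of the libraries.

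The other SOCS gene among the members, SOCS2, which is known mainly as a brake on growth hormone signalling, had FPKM values of 2.19, 2.76 and 2.45 in the normal samples. The PVR samples had 3.49, 2.97 and 3.65. The PVR values lay above the normal values in FPKM, but the groups overlapped in CPM after TMM scaling. The log2 fold change of 0.38 had a 95% interval from -0.04 to 0.80 and was not called (edgeR, adjusted p = 0.268). PIAS3, the PIAS protein named for its action on STAT3, had 16.3, 19.1 and 16.8 FPKM in normal and 19.6, 22.1 and 15.3 FPKM in PVR. Its groups overlapped, with a log2 fold change of 0.05 and an interval from -0.27 to 0.37. A rise as large as that of STAT3 lies outside both intervals.

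IL6ST, the shared receptor subunit of the family, was the most abundant of the 10 genes per length in both groups. Its FPKM values were 31.9, 28.0 and 30.7 in normal and 42.4, 45.2 and 42.0 in PVR. The groups were well separated. The difference was small, at a fitted 1.36-fold, with a log2 fold change of 0.45 and a 95% interval from 0.25 to 0.64. With edgeR it missed the threshold narrowly (adjusted p = 0.0532). It was under 0.05 in 5 of the 15 alternatives, among them DESeq2 (adjusted p = 0.000125), and reached 0.268 with PVR replicate 1 left out.

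The specific receptors showed no called change. LIFR, which pairs with IL6ST for LIF, CNTF and related cytokines, had 30.3, 26.6 and 25.2 FPKM in normal and 28.0, 27.1 and 29.2 FPKM in PVR. The 3 PVR values fell within the normal range. Its log2 fold change was -0.03 with an interval from -0.27 to 0.20 (edgeR, adjusted p = 0.873). OSMR, the oncostatin M receptor, was far less abundant, at 1.12, 1.33 and 1.86 FPKM in normal and 1.78, 2.02 and 1.93 FPKM in PVR. Normal replicate 3 reached the PVR values, and the log2 fold change of 0.34 had an interval from -0.15 to 0.83. The ratio of OSMR to LIFR within a sample was 0.0537 ± 0.0189 (SD, n = 3) in normal and 0.0681 ± 0.00579 (SD, n = 3) in PVR, and the groups overlapped. OSMR relative to IL6ST was likewise overlapping, at 0.0478 ± 0.0129 and 0.0442 ± 0.00199 (SD, n = 3 each).

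The Janus kinases, which couple the receptors to STAT3, differed little between the groups. JAK1, the kinase most used by IL6ST, had 24.9, 23.2 and 29.3 FPKM in normal and 27.8, 26.4 and 27.7 FPKM in PVR. Its log2 fold change of 0.01 had a 95% interval from -0.20 to 0.22. JAK2 had 8.70, 7.50 and 6.24 FPKM in normal and 8.88, 8.75 and 8.94 FPKM in PVR, and its log2 fold change of 0.17 had an interval from -0.13 to 0.47. The PVR values of JAK2 lay close together just above the highest normal value in FPKM, and overlapped with normal in CPM. TYK2, which also serves interferon receptors, had 2.73, 3.02 and 2.75 FPKM in normal and 2.31, 2.66 and 2.21 FPKM in PVR. It was the only member whose PVR samples were all below the normal samples on both scales. With a log2 fold change of -0.32 and an interval from -0.65 to 0.01, TYK2 was not called (edgeR, adjusted p = 0.247). The ratio of JAK2 to JAK1 was 0.295 ± 0.0722 in normal and 0.324 ± 0.00618 in PVR (SD, n = 3 each), and normal replicate 3 at 0.213 set the low mean of its group.

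**Figure D3:**
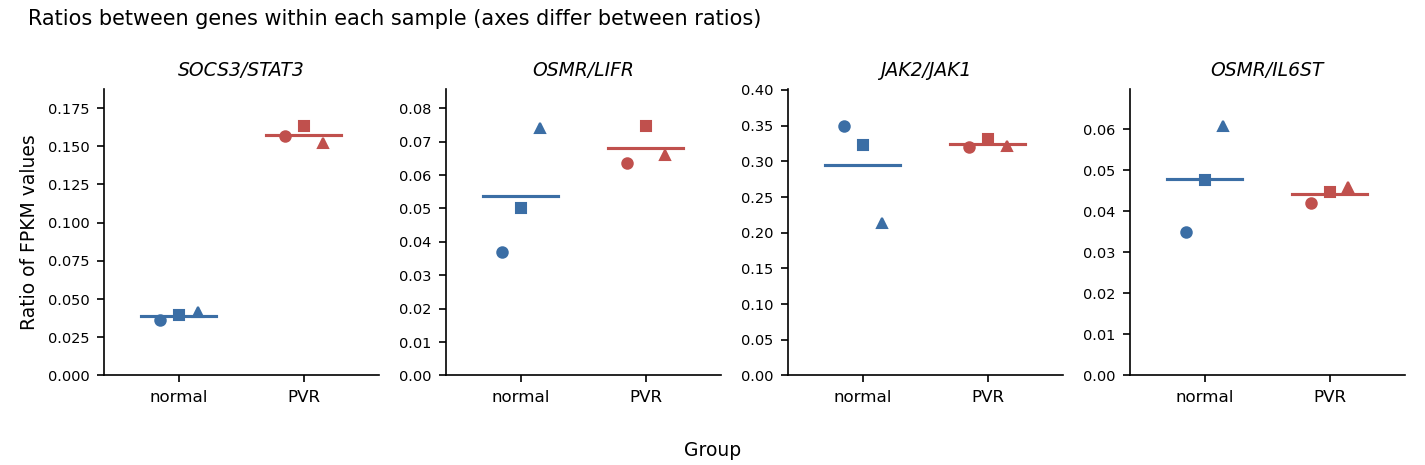
Ratio of the FPKM values of pairs of members within each normal (blue) and PVR (red) sample, with circles, squares and triangles for replicates 1 to 3, a line at the group mean and a separate axis from 0 for each ratio. SOCS3/STAT3 separated the groups, whereas OSMR/LIFR, JAK2/JAK1 and OSMR/IL6ST overlapped.

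On the FPKM scale 6 of the 10 members had groups that did not overlap, against 26.7% of all genes tested. On the CPM scale 4 did, against 28.0%. The 4 were STAT3, SOCS3, IL6ST and TYK2. SOCS2 and JAK2 were separate on the FPKM scale only, which carries no TMM factor. Over all genes the median log2 fold change was 0.06 with 0.1 FPKM added, beside -0.009 in edgeR.

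Ordered by mean FPKM, the normal retina had IL6ST at 30.2, LIFR at 27.4, JAK1 at 25.8, PIAS3 at 17.4, STAT3 at 16.2, JAK2 at 7.48, TYK2 at 2.84, SOCS2 at 2.47, OSMR at 1.44 and SOCS3 at 0.635. In normal retina the ranges of 4 pairs of neighbours in this order overlapped. These were IL6ST with LIFR, LIFR with JAK1, PIAS3 with STAT3, and TYK2 with SOCS2. In PVR, STAT3 had moved from the fifth place to the second at 39.6 FPKM, next to IL6ST at 43.2, and their ranges overlapped. SOCS3 had moved from the last place to the seventh at 6.25 FPKM, above SOCS2, TYK2 and OSMR in every PVR sample. Only IL6ST with STAT3, and LIFR with JAK1, overlapped as neighbours in the PVR order.

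The cytokines that feed into these receptors were scarce, with the exception of CNTF, the ciliary neurotrophic factor. CNTF had 9.54 ± 2.62 FPKM in normal and 10.9 ± 1.23 FPKM in PVR (SD, n = 3 each), with overlapping groups. LIF, the leukaemia inhibitory factor known from injured retina, had 6, 0 and 4 counts in normal and 65, 51 and 24 counts in PVR retina. LIF was thus near the limit of detection in normal retina and clearly counted in every PVR retina. Its log2 fold change of 3.92 had a wide interval, from 1.80 to 6.04, and was not called by edgeR (adjusted p = 0.0792). Of the 14 alternatives that gave a value for LIF, 1 had an adjusted p under 0.05, which was DESeq2 with 0.000423, and the range reached 0.301.

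OSM, which signals through OSMR or LIFR, had 1, 0 and 0 counts in normal and 13, 7 and 3 counts in PVR. It was too low for the edgeR filter. Against a limit of 3 counts in each normal library, on average 0.0769 CPM, its mean CPM in PVR was 2.92-fold higher. That figure leaves out the counting error of the PVR reads and any variation between retinas. PVR replicate 3, with 3 counts and 0.069 CPM, did not exceed the limit. IL6 itself had 3, 0 and 5 counts in normal and 2, 1 and 2 counts in PVR, so no difference was detectable at this depth. IL11 had no count in the normal samples and 0, 5 and 4 counts in PVR. IL27 had a single count in all 6 samples together.

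**Figure D4:**
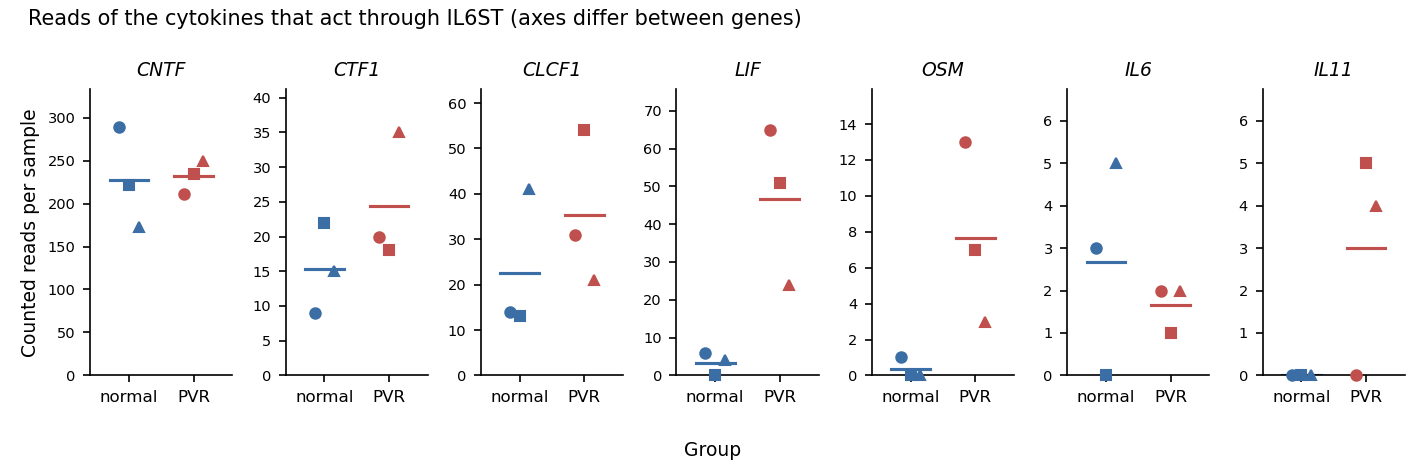
Counted reads of 7 cytokines that signal through IL6ST in each normal (blue) and PVR (red) sample, with circles, squares and triangles for replicates 1 to 3, a line at the group mean and a separate axis for each gene. CNTF was read at similar numbers in both groups, LIF had at most 6 reads in normal and at least 24 in PVR, and IL6 stayed at 5 reads or fewer.

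Expressed as shares of the summed FPKM of these 7 cytokines, CNTF took 91.5% ± 3.37 in normal and 75.2% ± 5.86 in PVR (SD, n = 3 each). LIF took 1.31% ± 1.14 in normal and 14.9% ± 6.76 in PVR (SD, n = 3 each). The shares are given without a test. Among 5 specific receptors, in contrast, the makeup was nearly alike. LIFR took 54.1% ± 1.19 in normal and 53.2% ± 0.351 in PVR, and IL11RA took 31.6% ± 1.53 and 29.6% ± 1.35 (SD, n = 3 each). CNTFR, which tethers CNTF to the cell, took 11.1% ± 0.907 and 12.9% ± 1.37 (SD, n = 3 each). IL6R, the receptor for interleukin-6, took 0.255% ± 0.0925 and 0.823% ± 0.495 (SD, n = 3 each), with 30, 17 and 34 counts in normal and 67, 32 and 169 counts in PVR. The PVR samples differed widely for IL6R, and its log2 fold change of 1.73 was not called by edgeR (adjusted p = 0.147). DESeq2 called it (adjusted p = 0.0371), and without PVR replicate 3 the edgeR log2 fold change was 1.11.

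Beyond the members, 47 further genes of the pathway were matched and 39 could be tested. A single one of them, IL10RB, was called, and it was higher in PVR. At an unadjusted p under 0.05, edgeR gave 9 higher and 3 lower. Their median log2 fold change was 0.14, beside -0.01 for all genes. IL10RB, the shared subunit of the receptors for interleukin-10 and its relatives, which also signal through STAT3, had 0.787, 0.708 and 0.722 FPKM in normal and 2.01, 2.41 and 1.65 FPKM in PVR. The fitted rise was 2.60-fold (log2 fold change 1.38, SE 0.24, edgeR adjusted p = 0.0441). Its call was lost without any 1 of normal replicates 1, 2 and 3 or PVR replicates 1 and 2, with adjusted p values from 0.0571 to 0.237 in edgeR. With the replicate number as a block it was also lost (edgeR, adjusted p = 0.107).

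Among the other STAT and JAK genes, 0 of 6 were called by edgeR or by DESeq2. At an unadjusted p under 0.05, edgeR gave 0 higher and 1 lower. STAT5B, which transmits growth hormone and cytokine signals, had 11.48, 10.96 and 13.12 FPKM in normal and 10.2, 11.85 and 11.07 FPKM in PVR. These FPKM ranges overlapped, whereas in CPM every PVR sample was below every normal sample. It had a log2 fold change of -0.17 with an interval from -0.39 to 0.05.

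Of 16 further feedback genes, edgeR called none, with 4 higher and 2 lower at an unadjusted p under 0.05. DESeq2 called 3 of them, PIAS2, PIAS4 and PTPRC. PIAS2 had 5.96, 5.36 and 5.32 FPKM in normal and 8.04, 9.02 and 6.71 FPKM in PVR (edgeR log2 fold change 0.44, adjusted p = 0.0926). PIAS4 lay on the other side, at 11.7, 11.7 and 10.7 FPKM in normal and 7.86, 7.90 and 9.22 FPKM in PVR (edgeR log2 fold change -0.52, adjusted p = 0.117). The PIAS genes thus differed among themselves in direction, with PIAS1 and PIAS3 near 0. SOCS1, the SOCS gene induced by interferon, was close to the limit of detection with 10, 14 and 11 counts in normal and 4, 7 and 3 in PVR. SOCS4, SOCS5, SOCS6 and SOCS7 had log2 fold changes between -0.27 and 0.13. The tyrosine phosphatase PTPN11, which docks to IL6ST, had a log2 fold change of -0.02 with an interval from -0.19 to 0.16. The highest log2 fold change among the 16 was 1.61, that of PTPRC, against 3.22 for SOCS3.

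PTPRC, the common leukocyte antigen CD45, also marks immune cells. It had 177, 163 and 44 counts in normal and 314, 538 and 206 counts in PVR. Marker genes of other cell types are given here because several differed between the groups in the same samples as STAT3 and SOCS3. A list of 11 microglia and macrophage genes summed to between 37.1 and 75.2 CPM in normal and between 93.1 and 113 CPM in PVR. Of these, 9 had all PVR samples above all normal samples, although edgeR called none (6 at an unadjusted p under 0.05, and 3 called by DESeq2). Over all genes tested, 13.4% had every PVR sample above every normal sample in CPM, and 14.6% had every PVR sample below. A list of 7 neutrophil genes summed to between 0.825 and 2.60 CPM in normal and between 8.84 and 20.0 CPM in PVR, with S100A8, S100A9 and S100A12 called higher and MPO at 0 in every sample. A list of 5 astrocyte and reactive glia genes, GFAP among them, summed to between 80.5 and 295 CPM in normal and between 432 and 488 CPM in PVR. GFAP made up most of that sum, S100B overlapped between the groups, and PAX2 was below normal in every PVR sample (log2 fold change -5.10, edgeR adjusted p = 0.0541). Marker genes of Müller glia summed to between 2661 and 3323 CPM in normal and to between 2100 and 2455 CPM in PVR. Of those 8, 4 were below normal in every PVR sample, and GLUL and RLBP1 were called lower. SLC1A3, DKK3, AQP4 and VIM overlapped between the groups, with log2 fold changes of 0.08, 0.10, -0.03 and -0.17. A list of 9 oligodendrocyte genes summed to between 217.6 and 1180 CPM in normal and to between 124.8 and 149.9 CPM in PVR, with MAG and MOBP called lower and 8 of the 9 lower in every PVR sample. A list of 9 pigment epithelium genes summed to between 172.6 and 381 CPM in normal and to between 103.9 and 134.7 CPM in PVR, with LRAT and TTR called lower and BEST1 above normal in every PVR sample but not called. Of 11 endothelial genes, which summed to between 609 and 663 CPM in normal and between 705 and 727 CPM in PVR, 6 were below normal in every PVR sample, and CDH5 and VWF were called lower. FLT1 and KDR made up most of that sum. FLT1 was above normal in every PVR sample but not called (log2 fold change 0.27, edgeR adjusted p = 0.143), and KDR overlapped between the groups. Of 7 pericyte genes, RGS5 was called lower, and the sums overlapped. Without normal replicate 2, edgeR no longer called S100A8, S100A9, S100A12, RLBP1, MAG, MOBP, CDH5, RGS5, LRAT or TTR, at adjusted p values from 0.0681 to 0.155, whereas GLUL and VWF were still called. The part of these cell markers in the values of STAT3 and SOCS3 was not tested.

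Genes known as targets of STAT3 in other tissues made up a further list of 30, of which 25 were matched and 21 tested. Leaving out the members STAT3, SOCS3, IL6ST and OSMR, 17 were tested, of which 3 were higher, 1 was lower and 13 were not called. Their median log2 fold change was 0.39, beside -0.01 over all genes. In CPM, 10 of the 17 had every PVR sample above every normal sample and 2 had every PVR sample below, against 13.4% and 14.6% of all genes tested. The list holds CP and TIMP1, which the study had singled out, so it is not independent evidence of a direction.

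The 3 targets called higher were CP, CEBPD and FOS. CEBPD, a transcription factor of the acute phase response, had 4.23, 5.54 and 4.25 FPKM in normal and 40.1, 34.2 and 43.3 FPKM in PVR (edgeR log2 fold change 2.995, SE 0.17). CP, the copper ferroxidase ceruloplasmin, had a log2 fold change of 3.23 (SE 0.10) and was called in all 15 alternatives, as was CEBPD. The log2 fold change of SOCS3 was thus close to those of CP and CEBPD. FOS, an immediate early gene, had 8.63, 12.8 and 9.93 FPKM in normal and 31.5, 41.1 and 21.9 FPKM in PVR (edgeR log2 fold change 1.51, adjusted p = 0.0359). The call of FOS was lost without any 1 of the 3 normal replicates or PVR replicates 1 and 2, at adjusted p values from 0.0546 to 0.19 in edgeR.

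The target called lower was VEGFA, the vascular growth factor, with 78.8, 77.3 and 66.1 FPKM in normal and 52.0, 53.2 and 48.2 FPKM in PVR (edgeR log2 fold change -0.61, adjusted p = 0.0394). This call was lost without any 1 of the samples other than normal replicate 3, at adjusted p values from 0.0548 to 0.225 in edgeR. VEGFA thus went against the other called targets. CEBPB, the relative of CEBPD that takes part in interleukin-6 responses, had a log2 fold change of 1.51 and an adjusted p of 0.051 in edgeR. ICAM1, GFAP and JUNB had log2 fold changes of 2.08, 1.39 and 1.19 and were not called by edgeR. DESeq2 called 8 of the targets, adding CEBPB, ICAM1, JUNB and TIMP1 to the 4 of edgeR. GFAP, the filament protein of reactive glia, had 20.0, 60.5 and 86.1 FPKM in normal and 157, 164 and 138 FPKM in PVR, so that its groups were separate in spite of the spread. The survival genes MCL1 and BCL2L1 had log2 fold changes of 0.25 and -0.14, PIM1 of 0.02 and MYC of 0.20, none of them called.

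**Figure D5:**
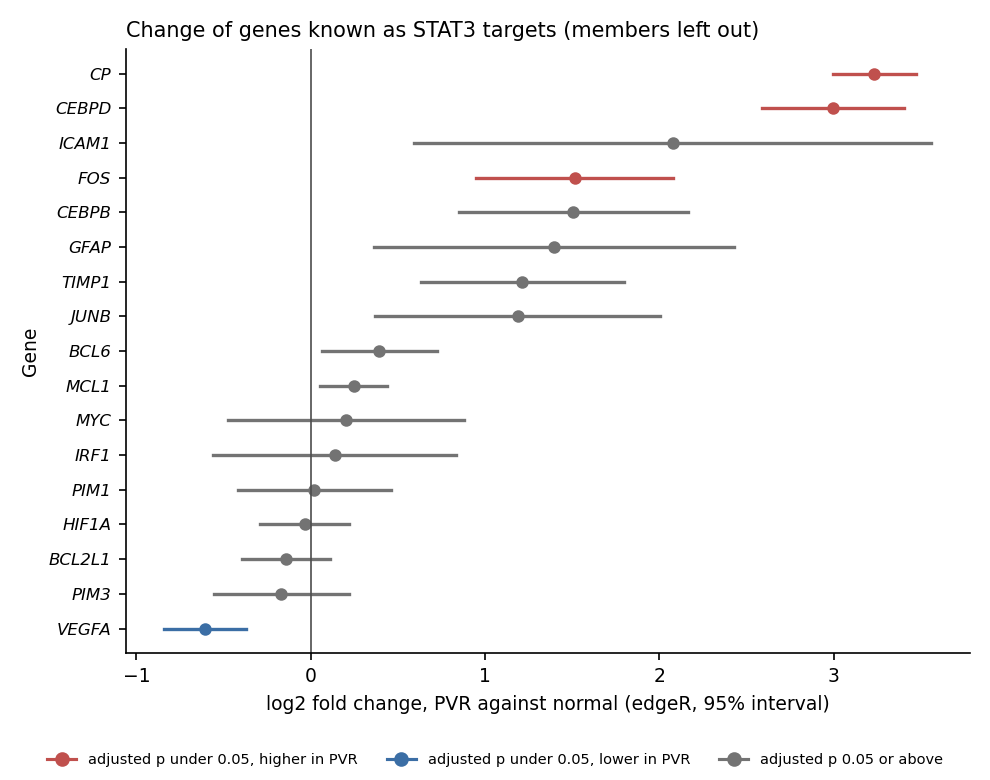
Log2 fold change in PVR against normal retina, from edgeR with 95% intervals over 3 samples a group, of the 17 tested genes known as STAT3 targets, with members left out and genes ordered by value. CP, CEBPD and FOS were called higher (red), VEGFA was called lower (blue) at -0.61, and the other 13 (grey) were not called.

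Among 9513 named genes with a mean log2 CPM of at least 3, the profiles nearest to that of STAT3 over the 6 samples were those of KCTD6, MRAS, COL11A1, CLU and CFAP54. Nearness was the root mean square difference of log2 CPM after centring each gene on its mean, and it was 0.08, 0.09, 0.09, 0.10 and 0.13 for these genes. CLU, the secreted chaperone clusterin, had 733, 799 and 805 CPM in normal and 1686, 1765 and 1456 CPM in PVR. MRAS, a small GTPase of the Ras family, had 76.0, 71.0 and 64.8 CPM in normal and 154, 177 and 126 CPM in PVR. In all 5 genes, as in STAT3, PVR replicate 3 was the lowest PVR sample and PVR replicate 2 the highest. The 5 genes were picked for their likeness to STAT3 over these samples, so a shared order follows largely from that choice. Among the members, IL6ST was the nearest, at position 326, and TYK2 the farthest, at position 7819. SOCS3 was under the minimum level for this comparison. These are descriptions over 6 samples of 2 conditions, with no test.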

How the data were processed

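RNA of 3 normal and 3 PVR rabbit retinas was analysed. The authors aligned reads to OryCun2.0 with HISAT2 and deposited raw counts per gene made with htseq-count, and the processing notes also name fastp. They also deposited FPKM values, which imply the same gene lengths in every sample (largest relative difference 4.24e-09). The annotation release and strand setting are not given in the sources used here, so reads of overlapping or antisense genes cannot be told apart.

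Columns were matched by sample title. Counts were tested with edgeR 4.0.16 (default filter, TMM factors, condition as the single term) in R 4.3.3. The SE is the log2 fold change divided by the square root of F. Alternatives used DESeq2 1.42.0, limma 3.58.1 (voom, or log2 of FPKM plus 1 or 0.1), other factors and filters, a replicate block and single samples left out. Exact tests used SciPy 1.17.1. The steps were tested on simulated data. Groups of 3 samples limit the precision.

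The members and lists were chosen with earlier results of these data known. Genes named are members, list genes, and the 5 nearest to STAT3. List genes were matched by symbol or RefSeq gene identifier (assembly mOryCun1.1, names only); unmatched ones, such as STAT5A, BCL3 and CCND1, are not analysed here. No positions or sequences are printed, since the table is of another build and holds no sequence. A few results for genes outside the members, 1 of the 5 ratios among them, are not reported here.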

Additional observations from a re-analysis of the deposited data

How the results depend on the processing

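SOCS3 was called in all 15 alternatives and STAT3 in 14, failing when PVR replicate 1 was left out. The number of members called was 3 with DESeq2, RLE factors, limma-voom and both FPKM scales, where IL6ST was added, and between 1 and 2 with single samples left out. Over all genes, 318 were called by edgeR, 1755 by DESeq2 and 92 with the replicate block, and between 22 (without PVR replicate 1) and 650 (without PVR replicate 3) with single samples left out. The number was 98, 76 and 557 without normal replicates 1, 2 and 3, and 113 without PVR replicate 2. The share of calls that were higher in PVR was 63.8% with edgeR, 75% with 1 FPKM added, 74% with 0.1 FPKM added, 50% without normal replicate 1 and 79.4% without PVR replicate 3. Of the other pathway genes, 7 were called by DESeq2, 0 by limma-voom (9 higher and 3 lower at an unadjusted p under 0.05), 0 with the replicate block (10 higher and 3 lower unadjusted) and between 0 and 2 with single samples left out. Of the STAT3 targets other than members, 8 were called by DESeq2 and between 2 and 5 with single samples left out.

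Near-zero values changed sign. The log2 fold change of LIFR was 0.04 with 1 FPKM added, 0.042 with 0.1 FPKM added, and between -0.096 and 0.05 with single samples left out (0.002 without PVR replicate 2). That of JAK1 was between -0.036 and 0.103 (-0.007 without normal replicate 1, -0.012 without PVR replicate 3), and that of PIAS3 between -0.06 and 0.173. The log2 difference of JAK2/JAK1 was between -0.05 and 0.306 and that of OSMR/IL6ST between -0.285 and 0.11, both turning without normal replicate 3. The cause was not tested. Deviations from the group mean had correlations of -0.01, 0.07 and 0.04 for same-numbered samples, and between -0.083 and 0.043 for differently numbered ones. With 3 samples a group, these values cannot decide whether the numbers pair the samples. The replicate block changed no member's call (STAT3 adjusted p = 0.015, SOCS3 adjusted p = 0.0104 in edgeR). IL6, IL11, OSM and IL27 were limited by depth, at 13 or fewer counts in every sample.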

Other observations

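The order of the 3 PVR retinas differed between these genes, an observation made after the values were seen. PVR replicate 3 had the lowest FPKM of the PVR samples for the members STAT3, SOCS3, PIAS3, IL6ST and TYK2, for the cytokines LIF, OSM and CLCF1, and for the target genes FOS, JUNB, CEBPB and BCL6. For IL6ST this depended on the scale, with 503.8 CPM in PVR replicate 3 and 499.8 CPM in PVR replicate 1. PVR replicate 3 had the highest FPKM for the members SOCS2, LIFR and JAK2, for IL6R, at 0.743 FPKM against 0.397 and 0.187, for CNTFR, at 7.55 FPKM against 7.17 and 5.72, and for CEBPD, at 43.3 FPKM against 40.1 and 34.2. Its neutrophil genes summed to 8.84 CPM, against 17.4 and 20.0 CPM in PVR replicates 1 and 2. Of 3 samples 1 is always the lowest, and with a single sample of this kind the values are given as a description.

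Interferon receptors also use Janus kinases, and edgeR called none of their 4 subunits. IFNAR1 had 16.9, 17.2 and 18.7 FPKM in normal and 22.9, 24.2 and 21.4 FPKM in PVR (log2 fold change 0.31, edgeR adjusted p = 0.0841, DESeq2 adjusted p = 0.0409). IFNGR2 had a log2 fold change of 0.37, IFNGR1 of 0.26 and IFNAR2 of 0.12. These values lay on the opposite side of 0 from that of SOCS1, at -1.17, none of the 5 being called by edgeR. The unadjusted count for the receptor list of 12 tested genes was 4 higher and 0 lower.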
